A study of Caenorhabditis elegans with 52 samples.

Results

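Nucleosomes of *C. elegans* germ nuclei were compared between animals depleted of ISW-1 by auxin and animals given ethanol, after a wash of 500 mM NaCl (high salt). This comparison takes 8 of the 52 samples of the series, namely 2 H3 and 2 input samples after auxin and as many after ethanol, and it is held in a single table of 550900 nucleosomes (autosomes and X). All groups of this comparison were young adults of the same strain, YL701, grown for 45 h before treatment. They carried ISW-1 fused to eGFP and an auxin-inducible degron (AID) on chromosome III, together with wrdSi51, a transgene that expresses the plant F-box protein TIR1 from the germline promoter *mex-5p*. In the treated groups the animals received 1 mM auxin for 3 h, which directs AID-tagged proteins to degradation, and in the control groups they received ethanol, the solvent. Nuclei of germ cells were isolated, and mononucleosomes were recovered with an antibody to histone H3 without crosslinking (native ChIP-seq). The *prde-1* values given below for reference come from other animals, *prde-1(mj207)* mutants against wild type, without the degron and without auxin. Per the methods of the paper, those mutants were harvested at a later hour of growth than wild type.

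Some limits apply to every value below. The replicates of each group were merged before nucleosomes were called, so each group is 1 library, no spread between replicates can be given and no test was made. Read depth is not known. The values are a signal scaled to 1 total per library, so a lower share in one place is met by a higher share elsewhere and a genome-wide loss cannot be seen. H3 occupancy does not show whether ISW-1 was depleted, nor which cells the nuclei came from. The strain in the titles is not in the study's strain list, and the treatment field of the high-salt ethanol samples reads low salt where their titles read high salt. That of the low-salt auxin samples reads high salt where their titles read low salt. Titles were used for both.

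ISW-1 is the *C. elegans* ISWI ATPase, a remodeller of a family that slides nucleosomes along DNA and sets even distances between them. Piwi-interacting RNAs (piRNAs) are small RNAs that guard the germ line, and in *C. elegans* most of their genes lie in domains on chromosome IV, each gene with its own short promoter. A germline complex, the upstream sequence transcription complex (USTC), contains TOFU-5, PRDE-1, TOFU-4 and SNPC-4 and binds the conserved element in these promoters, whose core is GTTTC. A wash with more salt strips histones that are weakly held, and the series therefore has each comparison also after a wash of 150 mM NaCl (low salt).

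Promoter sequences of piRNA genes are shown here because the comparison turns on the occupancy of the nucleosome just upstream of such a gene. They belong to the 4 lowest and 3 of the highest of the most occupied such nucleosomes, picked for their changes. The lowest, 21ur-5977, carries the full element TGTTTCA, as do the 3 from the highest, so the element does not separate these genes. In the most occupied quintile of all domain piRNA genes, the median change was -1.14 with TGTTTCA, -1.16 with GTTTC only and -1.11 with neither. Each line gives 30 bases from the 60 before the annotated 5′ end, read 5′ to 3′ on the strand of the gene, from ce11 (WBcel235). Lines with an element are placed around it and start at position -55 (21ur-5977 and 21ur-804), -57 (21ur-6436 and 21ur-482) or -53 (21ur-14687), while lines with none end at the base before the 5′ end, so the lines do not align with each other. Capitals mark TGTTTCA, the full element searched for, or GTTTC where only the core is present, and lines without capitals hold neither in the 60 bases before the 5′ end.
21ur-5977, chrIV:13630369-13630398, minus strand: aatattttcacTGTTTCAaattgtaaatag
21ur-8607, chrIV:16571079-16571108, minus strand: ttaaagtagacgcactaaaaataaaaacac
21ur-804, chrIV:17074396-17074425, minus strand: caaaatgtacaGTTTCagacgttccagata
21ur-9390, chrIV:14183589-14183618, minus strand: gataattgttgaacgaaaagatattaaaca
21ur-6436, chrIV:14880205-14880234, plus strand: gaaaatatcgcTGTTTCAaagaaatgttat
21ur-482, chrIV:16640283-16640312, minus strand: gaagttttcacTGTTTCActcacaaattat
21ur-14687, chrIV:16975437-16975466, minus strand: aaaaaattaacTGTTTCAaccaggtattat
In these domains 48.6% of 14341 piRNA genes carried TGTTTCA on the strand of the gene within 60 bases of the 5′ end, and 75.8% carried GTTTC, those with TGTTTCA included. The same windows of protein-coding genes held TGTTTCA in 1.90% and GTTTC in 11.6%. TGTTTCA most often began at position -45 from the 5′ end of a piRNA gene, in 32.6% of the genes that carried it. Letters that match are a description and do not show binding.

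Over the whole genome, occupancy after auxin and after ethanol was spread widely around no change. For each nucleosome the occupancy is the deposited signal at its summit, and the change is log2 of the auxin value over the ethanol value, with 1 added to each. The mean occupancy was 168 in both libraries and the median was 115.3 after auxin and 102 after ethanol. The median change was 0.00, with quartiles at -1.83 and 2.27. At least 2-fold lower values after auxin were found for 177166 nucleosomes (32.2%) and at least 2-fold higher ones for 194558 (35.3%). These shares are the background for every group below. Many of the extreme ratios come from nucleosomes listed at 0 in one library, which made up 22.1% of the table after auxin and 23.6% after ethanol. Groups were therefore also compared by log2 of the ratio of their mean occupancies.

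Among windows of 100 kb, the lowest ratios of auxin to ethanol lay in the piRNA domains of chromosome IV. The domains span 4800001 to 7000000 (domain 1, with 2807 piRNA and 420 protein-coding genes) and 13500001 to 17300000 (domain 2, with 11534 piRNA and 480 protein-coding genes) of that chromosome. The 33901 nucleosomes in them had a mean occupancy of 272 after auxin and 458 after ethanol, a log2 ratio of means of -0.75. Outside them the means were 161 after auxin and 149 after ethanol, a log2 ratio of 0.11. Domain 2 was lower (289 against 520, log2 ratio -0.84) than domain 1 (242 against 349, log2 ratio -0.53).

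In windows of 100 kb the domains stood apart as continuous blocks. All 60 windows in the domains were lower after auxin, with log2 ratios between -1.01 and -0.20 and a median of -0.75. Of the 944 windows outside, 278 were lower, and the median was 0.13, with a range of -0.53 to 0.69. Among the 60 lowest windows of the genome, 53 lay in the domains. The lowest was 16600001 to 16700000 on chromosome IV, which holds 358 piRNA genes, with a mean of 349.9 after auxin and 704 after ethanol, a log2 ratio of -1.01. The next were 14200001 to 14300000, with 281 after auxin and 565 after ethanol, and 14000001 to 14100000, with 294 after auxin and 586 after ethanol.

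**Figure D1:**
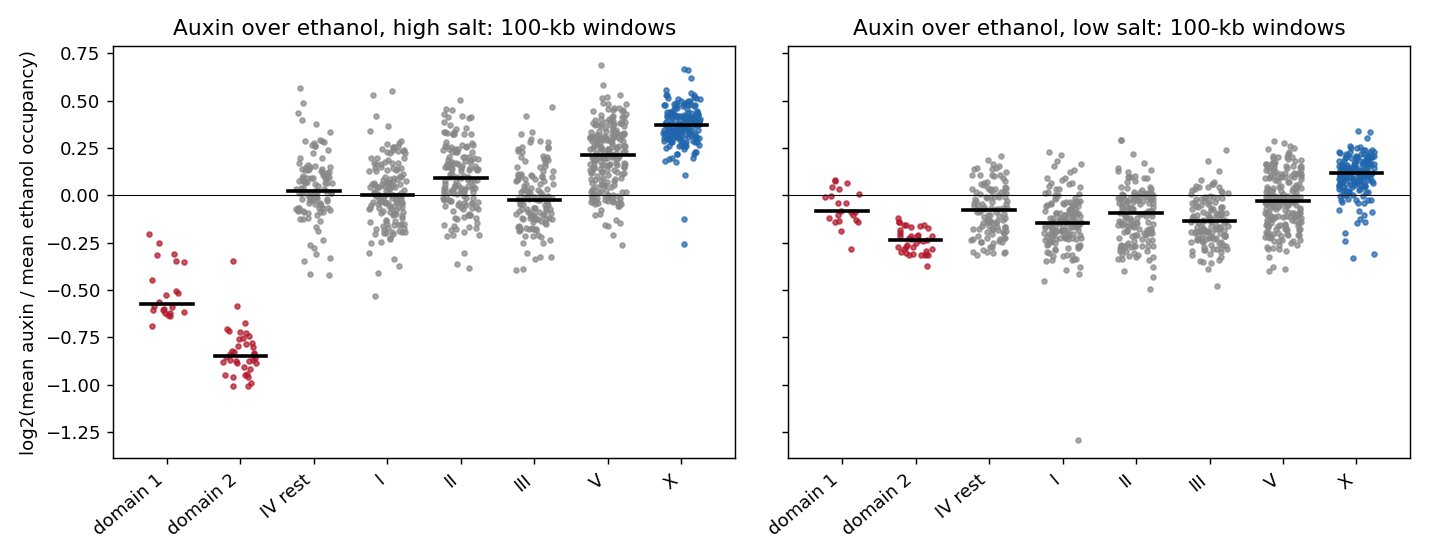
Log2 ratio of mean occupancy, auxin over ethanol, in 1004 windows of 100 kb, at high salt (left) and low salt (right), with 1 point per window and a bar at the median of each group. At high salt the 60 windows of the piRNA domains lie between -1.01 and -0.20 and 176 of 178 X windows lie above 0.

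The borders of the domains could be read from single windows. At the right end of domain 2, the last window (17200001 to 17300000, 146 piRNA genes) had a mean of 296 after auxin and 488 after ethanol, a log2 ratio of -0.72, and the next window, with 12 piRNA genes, had 137 after auxin and 112 after ethanol, a log2 ratio of 0.29. At the left end, the window from 13400001 had a log2 ratio of -0.02 with 3 piRNA genes, the first of the domain -0.35 with 24, and the second -0.83 with 221. Domain 1 had softer borders. On its left the ratios were -0.23 in the window just outside, with 8 piRNA genes, and -0.44 in the first window inside, with 149. On its right they were -0.62 in the last window inside and -0.26 and -0.01 in the next ones outside. The domain windows nearest to no change were in domain 1, from 6800001 (-0.20, 212 after auxin and 244 after ethanol) and from 6700001 (-0.25, with 17 piRNA genes).

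Within the domains the decrease was deeper where piRNA genes were denser. In 10-kb bins with 50 or more piRNA genes, the 3556 nucleosomes averaged 346 after auxin and 679 after ethanol (log2 ratio -0.97). Bins with 20 to 49 genes averaged 312 after auxin and 558 after ethanol (-0.84), and bins with 5 to 19 genes averaged 241 after auxin and 357 after ethanol (-0.56). Bins of the domains with 1 to 4 genes had a log2 ratio of -0.22, and those with none had -0.32, with 167 after auxin and 209 after ethanol. In the densest bins 47.0% of nucleosomes were at least 2-fold lower and 18.8% at least 2-fold higher, against 32.2% and 35.3% of all nucleosomes. Outside the domains, bins with no piRNA gene had a log2 ratio of 0.10 and the 231 nucleosomes in bins with 5 to 19 had -0.52 (219 after auxin, 314 after ethanol). Over the 60 domain windows the rank correlation of the change with the number of piRNA genes was -0.85. The windows share both libraries, and denser windows were also the more occupied ones after ethanol. The change had a rank correlation of -0.91 with the ethanol mean in these windows and of -0.85 in the 944 windows outside, where the ethanol library enters both measures.

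At low salt the ratios in the same domains were far closer to no change, in a table that shares no library with the high-salt one. There, 54 of the 60 domain windows were lower after auxin, with a median log2 ratio of -0.18, and the lowest high-salt window had -0.31. In *prde-1* mutants against wild type at high salt, a comparison made without auxin, all 60 windows were lower in the mutant, with a median of -1.25. Over the 60 domain windows the high-salt auxin change had a rank correlation of 0.78 with the low-salt auxin change and of 0.88 with the *prde-1* change. Over the 944 windows outside, these values were 0.62 and -0.48. The density of piRNA genes runs along all of these windows and the tables were scaled separately.

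The nucleosome directly upstream of piRNA genes had a lower ratio than the domains as a whole. A nucleosome with an ethanol dyad, the centre of the nucleosome, within 200 bp upstream of the 5′ end was found for 13886 piRNA genes of the domains. These genes share 9221 nucleosomes. The median occupancy was 341 after auxin and 664 after ethanol, and the median change -1.06, with quartiles at -1.85 and -0.19. Over all domain nucleosomes the median occupancy was lower, at 166 after auxin and 190 after ethanol. Those in the highest genome-wide decile of the mean of both libraries, upstream or not, had a median change of -0.995. The lower ratio was thus not particular to the upstream position. This decile was formed from the same libraries as the change. At least 2-fold lower were 52.1% of the genes and at least 2-fold higher 12.1%, to be read against 32.2% and 35.3% of all nucleosomes. The median change was -0.90 in domain 1 and -1.09 in domain 2. Whether the piRNA gene lay inside the span of a protein-coding gene made little difference to the value, with -1.03 for 5167 genes inside and -1.07 for 8719 genes outside such spans.

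Genes with the promoter element had the more occupied upstream nucleosome and the larger change. Those with TGTTTCA (6817 genes) had a median of 411 after auxin and 918 after ethanol, and a change of -1.10. Those with GTTTC only (3781 genes) had 342 after auxin and 684 after ethanol, and a change of -1.12. Those with neither (3288 genes) had 226 after auxin and 323 after ethanol, and a change of -0.76. Much of this order went with occupancy. With the genes split into quintiles by the mean of both libraries, the median changes in the most occupied quintile were -1.14 with TGTTTCA, -1.16 with GTTTC and -1.11 with neither. In the middle quintile they were -1.12, -1.18 and -0.86, and in the lowest quintile -0.24, -0.42 and 0.00. The quintiles were formed from the same libraries as the change.

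Away from the domains the values were closer to no change or above it. The 345 piRNA genes of chromosome IV outside the domains had a median change of -0.51 (226 after auxin, 216 after ethanol), where the log2 ratio of means was -0.74. The 578 piRNA genes on the other chromosomes had a median change of 0.19, with 128 after auxin and 122 after ethanol. At low salt the genes of the domains had a median change of -0.26 (320 after auxin, 384 after ethanol) and the genes off chromosome IV 0.17. For *prde-1* mutants over wild type, the domain genes had -2.93 (97.4 in *prde-1*, 626 in wild type) and those on other chromosomes -0.03. There, genes with TGTTTCA had -3.31 and those with neither -1.85.

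Among the most occupied upstream nucleosomes, the change at single promoters varied widely. The examples are taken from the 883 upstream nucleosomes in the top decile, with a mean of both libraries of at least 1721. The lowest change was at 21ur-5977, which lies in an intron of *sru-21* at 13630323 to 13630343, with 455 after auxin and 3914 after ethanol, a change of -3.10. It was followed by 21ur-8607 (481 after auxin, 3407 after ethanol, -2.82), 21ur-804 (460 after auxin, 3210 after ethanol, -2.80) and 21ur-9390 (622 after auxin, 4169 after ethanol, -2.74). Only the first of these carries TGTTTCA, as the sequences above show. The 3 genes shown from the other end of the order all carry it. They were 21ur-6436 in an intron of *eps-8* (2291 after auxin, 1416 after ethanol, 0.69), 21ur-482 (2500 after auxin, 2012 after ethanol, 0.31) and 21ur-14687 (2426 after auxin, 2331 after ethanol, 0.06). The genes were picked for these changes, so the changes are a description. The cut was set on the same libraries as the change and did not make the genes equal in either library. 21ur-5977, 21ur-8607, 21ur-804 and 21ur-9390 exceeded 1721 only after ethanol, and 21ur-6436 only after auxin. 21ur-482 and 21ur-14687 exceeded it in both libraries. In *prde-1* at high salt the upstream nucleosome of 21ur-804 was listed at 0 and those of the other 6 shown were lower than in wild type, by -2.23 at 21ur-6436 to -6.92 at 21ur-8607. At low salt 21ur-5977 had 191 after auxin and 122 after ethanol, a change of 0.64, opposite in sign to that at high salt. For *prde-1* and for low salt the nearest upstream dyad was chosen anew, so it may not be the same nucleosome.

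The X chromosome was higher after auxin in nearly all of its windows, and chromosome V was higher in most. X carries few germline-expressed genes and is largely kept silent in worm germ cells. Its nucleosomes averaged 159 after auxin and 122.7 after ethanol, a log2 ratio of 0.37, against 162 after auxin and 156 after ethanol on the autosomes outside the domains (0.06). The median change was 0.30 on X and 0.00 on these autosomes. Of the 178 windows of X, 176 were higher after auxin, with a median of 0.37. On chromosome V 176 of 209 windows were higher, with a lower quartile of 0.06. Windows had medians of 0.21 on chromosome V, 0.09 on II, 0.03 on the rest of IV, 0.00 on I and -0.02 on III. The highest window of the genome was on V, from 2300001 (128 after auxin, 78.8 after ethanol, log2 ratio 0.69), and the next were on X, from 8700001 (176 after auxin, 111 after ethanol, 0.67) and from 10800001 (0.66). Over all genes the change went with occupancy, as given below. In wild type at high salt, protein-coding genes had a median occupancy of 129 on X and 138 on V. The wild-type deciles of genes that hold these values had median changes of 0.30 and 0.26. Genes of X were at 0.38 and those of V at 0.22.

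The higher ratio on X than on autosomes was present in every class of sequence. In exons the log2 ratio of means was 0.34 on X and -0.08 on autosomes outside the domains, and in introns it was 0.38 and 0.08. In the 1 kb upstream of protein-coding genes it was 0.39 on X and -0.01 on autosomes, and in other intergenic sequence 0.36 and 0.22. X and the autosomes had nearly the same base composition, with a median GC content around the dyad of 34% and 35.3%. In 20 of 20 bins of GC content the ratio was higher on X, and after the median of the bin was taken from each change the median on X was still 0.23. The domains were below the rest in 20 of 20 bins, with -0.64 after the same subtraction. At low salt, X windows were higher after auxin in 157 of 178 (median 0.12), and the ratio on X was above that on autosomes in 20 of 20 GC bins. In *prde-1* against wild type 115 windows of X were higher in the mutant (median 0.03), and the ratio on X was above that on autosomes in 0 of 20 bins.

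One other scaling of the libraries was tried. With the auxin values multiplied by 0.868, so that the median occupancy outside chromosome IV was the same in both libraries, every ratio of means moved by -0.20 on the log2 scale, which puts the domains further below 0 and keeps X above it. Arms of autosomes other than IV had the same median change as their centres at high salt (a difference of 0.00), and at low salt the difference was -0.21.

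Lists of housekeeping genes and most lists of germline genes had lower occupancy after auxin. For each gene the mean occupancy of the nucleosomes within 500 bp of the 5′ end was formed in each library, and the change is log2 of the ratio of these means with 1 added. Over 18415 protein-coding genes outside the domains the median change was 0.09 (157 after auxin, 140 after ethanol), or -0.11 with auxin values scaled as above. At least 2-fold lower were 2299 of them (12.5%), and at least 2-fold higher 3134 (17.0%). Lower by any amount were 8505 (46.2%), and higher by any amount 9910. Every list below is set against these values, although some lists have members in the domains, among them 9 of 29 major sperm proteins, 4 of 75 ribosomal proteins and 3 of 25 meiotic genes. Without those members the medians were 0.58 for major sperm proteins, -1.20 for ribosomal proteins and -0.71 for meiotic genes. In the domains, 864 protein-coding genes had a median change of -0.51.

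**Figure D2:**
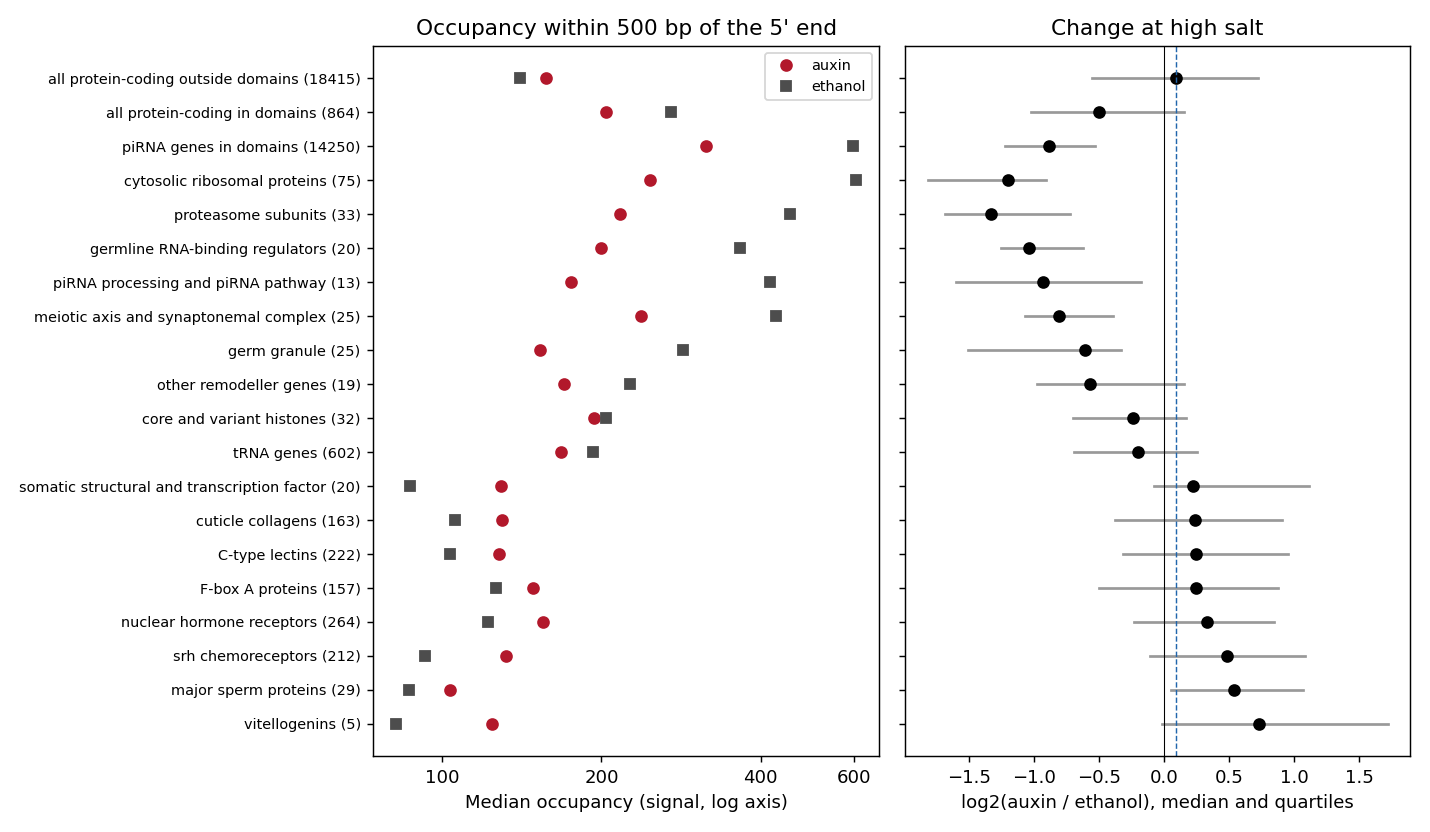
Median occupancy within 500 bp of the 5′ end after auxin (circles) and ethanol (squares) on a log axis, left, and the median change with its quartiles, right, for lists of genes with the number measured in brackets. The dashed line marks the median of all protein-coding genes outside the domains, 0.09; ribosomal protein and proteasome genes lie at -1.20 and -1.33.

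Genes of the cytosolic ribosome had lower ratios than the piRNA genes of the domains measured in the same way, which were at -0.89. Of 75 measured genes for its proteins 72 were lower after auxin and 53 at least 2-fold lower, against 12.5% of all genes. The medians were 247 after auxin and 606 after ethanol, and the median change was -1.20. The lowest was *rpl-27*, for a protein of the large subunit, with 95.2 after auxin and 655 after ethanol, a change of -2.77, and it was -3.45 at low salt. *rps-16*, for a protein of the small subunit, had 143 after auxin and 882 after ethanol (-2.61), *rpl-4* changed by -2.48 and *rpl-39* by -2.40. *rpl-37*, at 234.8 after auxin and 207 after ethanol, was one of the 3 genes that were higher. At low salt 35 of these genes were at least 2-fold lower, against 14.9% of all genes, with a median of -0.95. The list was at 0.04 in *prde-1* against wild type.

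At these genes the ratio was below 0 on both sides of the 5′ end and lowest downstream of it. In cytosolic ribosomal proteins, nucleosomes 100 to 199 bp downstream averaged 138 after auxin and 566 after ethanol, a log2 ratio of -2.03. The next 100 bp averaged 162 after auxin and 694 after ethanol (-2.09), and those from 500 bp on averaged 178 after auxin and 696 after ethanol. Upstream, in the bin from -300 bp on, the means were 545 after auxin and 802 after ethanol (-0.56), the ratio nearest to no change. In the bins from -200 and -100 bp on, the log2 ratios were -1.02 and -1.47, and in that from 900 bp on -0.77. Over whole gene spans 73 of 75 of these genes were lower. In all protein-coding genes outside the domains, the bin from 200 bp on averaged 144 after auxin and 151 after ethanol and the bin from -300 bp on averaged 219 after auxin and 238 after ethanol.

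**Figure D3:**
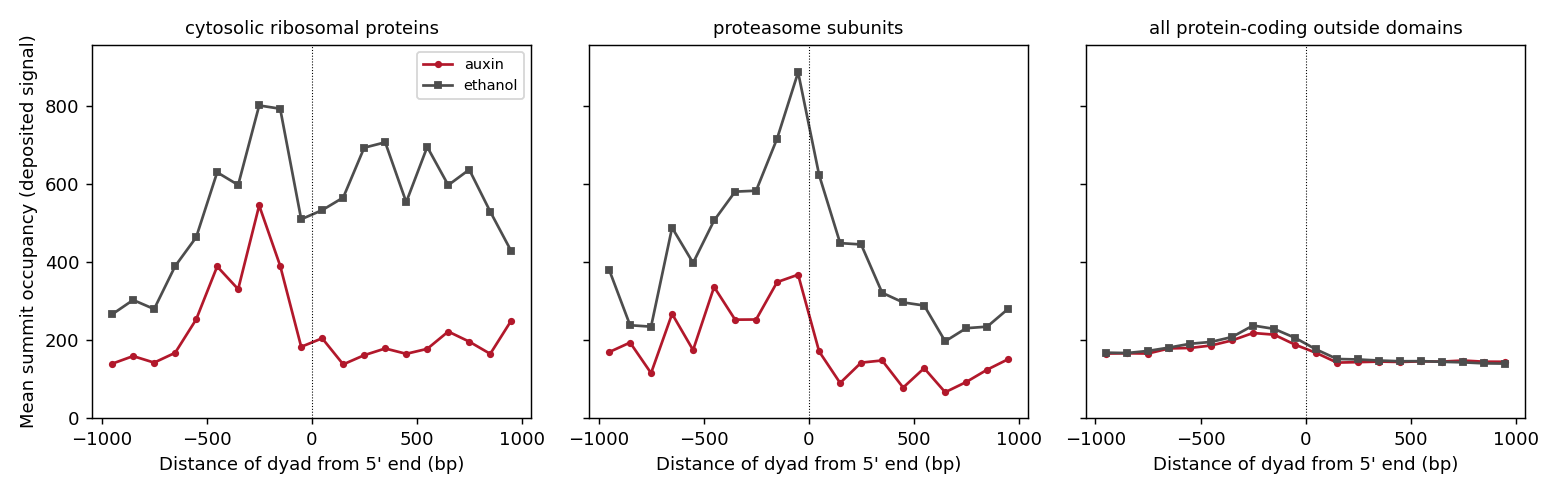
Mean summit occupancy in bins of 100 bp by the distance of the dyad from the 5′ end, after auxin (red circles) and ethanol (grey squares), for 3 sets of genes. At ribosomal protein and proteasome genes the auxin line lies below the ethanol line at every distance, and over all protein-coding genes outside the domains the lines lie close together.

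Proteasome subunits, which degrade ubiquitin-marked proteins, were lower by a similar size. All 33 genes were lower after auxin and 22 were at least 2-fold lower, against 46.2% and 12.5% of all genes. The medians were 217 after auxin and 454 after ethanol, and the median change was -1.33. *pas-1*, a subunit of the core particle, had 50.4 after auxin and 324 after ethanol (-2.66), and *rpt-2*, an ATPase of the cap, had 150.0 after auxin and 665 after ethanol (-2.14). The nearest to no change was *pbs-3*, with 345 after auxin and 401 after ethanol (-0.22). Among other housekeeping lists, the 7 Sm proteins of the spliceosome had a median change of -1.08, led by *snr-2* with 54.7 after auxin and 447 after ethanol. Translation initiation factors were at -0.82 (24 genes), mitochondrial ribosomal proteins at -0.62 (66), aminoacyl-tRNA synthetases at -0.57 (32) and subunits of respiratory complex I at -0.33 (14). Of the complex I genes only 1 was at least 2-fold lower and 1 at least 2-fold higher, against 12.5% and 17.0% of all genes. The lists of this paragraph, and those of all *sr* genes, neuropeptides, cytochrome P450 and UDP-glucuronosyltransferases below, were chosen after the values of the other lists had been seen.

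Several lists of genes with roles in the germ line were lower too. Of 20 germline RNA-binding regulators 17 were lower and 11 at least 2-fold lower, against 46.2% and 12.5% of all genes. The medians were 199 after auxin and 365 after ethanol, and the median change was -1.04. *fbf-1*, for a PUF protein that keeps germline stem cells, had 72.7 after auxin and 329 after ethanol (-2.16), and its near copy *fbf-2* had 83.4 after auxin and 294 after ethanol (-1.80). *nos-3*, a Nanos homolog, had 406 after auxin and 916 after ethanol (-1.17), and *gld-1*, for a translational repressor of meiotic germ cells, had 315 after auxin and 485 after ethanol (-0.62). *oma-1*, which acts in oocyte maturation, was at -0.05 and *fog-3*, which acts in the sperm decision, at 0.63. At low salt the list had a median of -0.29. Major sperm proteins, a repeated family used in spermatogenesis, lay above the median of all genes instead, at 0.54 at high salt. Of 29 genes 10 were at least 2-fold higher and 5 at least 2-fold lower, against 17.0% and 12.5% of all genes.

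Lists of meiotic and germ granule genes were also below the median of all genes. Genes of the meiotic axis and synaptonemal complex had medians of 238 after auxin and 428 after ethanol and a median change of -0.81. Of 25 genes 22 were lower and 10 at least 2-fold lower, against 46.2% and 12.5% of all genes. *spo-11*, for the enzyme that makes meiotic breaks, had 218 after auxin and 617 after ethanol (-1.50), and *chk-2*, for a kinase of early meiotic prophase, had 379 after auxin and 1006 after ethanol (-1.41). The axis genes *htp-1* and *htp-3* were at -1.19 and -1.05. *syp-1*, for a protein of the central region, went the other way, with 133 after auxin and 45.7 after ethanol (1.52). Germ granule genes had a median of -0.61, with 21 of 25 lower and 11 at least 2-fold lower, against the same shares. *pgl-1*, for a core granule protein, had 81.9 after auxin and 317 after ethanol (-1.94), *car-1* had 126 after auxin and 639 after ethanol (-2.33) and the Argonaute gene *csr-1* was at -1.93, while *meg-3* and *meg-4*, both on X, were at 0.96 and 1.21. Over whole gene spans germ granule genes were at -1.0, meiotic genes at -0.70 and RNA-binding regulators at -0.61.

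Genes that make or use piRNAs lay outside the domains and were lower as well. Of 13 genes of piRNA processing and the piRNA pathway 12 were lower and 6 at least 2-fold lower, against 46.2% and 12.5% of all genes. The medians were 175 after auxin and 418 after ethanol, and the median change was -0.93 at high salt and -0.94 at low salt. *prg-1*, for the Piwi protein that binds piRNAs, had 97.1 after auxin and 619 after ethanol (-2.66), and -1.73 at low salt. Nucleosome by nucleosome, 4 of the 7 in its window were listed at 0 after auxin, at 294, 368, 662 and 437 after ethanol. *tofu-1*, needed for piRNA production, had 67.0 after auxin and 433 after ethanol (-2.67), *pid-3* was at -1.95 and *hrde-1*, the nuclear Argonaute, at -1.26. *parn-1*, for the nuclease that trims piRNA ends, was at 0.75.

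Among the genes of the transcription complex, *snpc-4*, for its DNA-binding subunit, had 63.1 after auxin and 295 after ethanol, a change of -2.21 at high salt and -0.02 at low salt. Over the whole span of *snpc-4* the change was 0.01, and the median of the list was -1.0 by 5′ windows and -0.18 over whole spans. *tofu-5* had 321 after auxin and 723 after ethanol (-1.17), *tofu-4* had 143 after auxin and 309 after ethanol (-1.10), and *uad-2*, for a partner found at the same foci, had 171 after auxin and 320 after ethanol (-0.90). *tbp-1*, for the TATA-binding protein, had 147 after auxin and 134 after ethanol (0.14). *prde-1* had 1855 after auxin and 1680 after ethanol (0.14), far above every other gene of this list. The labels do not say whether YL701 carries a further copy or a tag of the *prde-1* sequence, and YL701 is not in the paper's strain list. The only strain there with both the degron and TIR1, YL704, also carries a transgene of *prde-1* fused to mCherry. The value of *prde-1* may therefore not be that of the native gene alone. The 3 ISWI genes were lower in the 5′ window, with a median of -0.96, and over whole spans the median was -0.37 and *nurf-1* was at -0.15. *isw-1* had 89.3 after auxin and 373 after ethanol (-2.05), where the dyad 12 bp downstream of the 5′ end had 247 after auxin and 1220 after ethanol. *nurf-1*, for the large partner subunit, had 199 after auxin and 389 after ethanol (-0.96), and *pyp-1*, for a pyrophosphatase of the same complex, had 453 after auxin and 710 after ethanol (-0.65). Genes of other remodellers had a median of -0.57, with 13 of 19 lower and 4 at least 2-fold lower, against 46.2% and 12.5% of all genes.

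Lists of chemoreceptors, collagens, other large families and somatic genes were at or above the median of all genes. Among 212 *srh* chemoreceptor genes, 148 were higher after auxin and 62 at least 2-fold higher, against 17.0% of all genes, with medians of 132 after auxin and 92.6 after ethanol and a median change of 0.48. Over all *sr* chemoreceptor families, 1124 genes had a median of 0.36. UDP-glucuronosyltransferases were at 0.54, nuclear hormone receptors at 0.32, neuropeptides and insulins at 0.26, cytochrome P450 genes at 0.25, cuticle collagens, C-type lectins and F-box A proteins at 0.24 each and the 5 vitellogenins, the yolk proteins, at 0.73. Genes of muscle, neurons and other somatic tissues had a median of 0.22, with 13 of 20 higher, against 9910 of 18415 genes outside the domains. The myosin gene *myo-2* had 96.8 after auxin and 7.14 after ethanol (3.59), and the neuronal *eat-4* had 24.9 after auxin and 59.9 after ethanol (-1.23). With auxin scaled by 0.868 all of these medians stayed above 0, by as little as 0.02 for the somatic list, and that of miRNA genes was 0.12 unscaled and -0.081 scaled.

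Nucleosomes in tRNA and snoRNA genes had lower occupancy after auxin. The 286 with a dyad in a tRNA gene averaged 166 after auxin and 262 after ethanol, with a median change of -0.51, and 39.9% were at least 2-fold lower and 18.2% at least 2-fold higher, against 32.2% and 35.3% of all nucleosomes. The 262 in snoRNA genes had a median of -0.46. By 5′ windows, which reach beyond these short genes, 602 tRNA genes had a median change of -0.20, 340 snoRNA genes -0.23, 112 snRNA genes -0.08, 187 lincRNA genes 0.25 and 1914 pseudogenes 0.23. The 32 measured genes of core and variant histones had a median of -0.24 at high salt and -1.07 at low salt. Many of the core histone genes are repeated, and reads of near copies may not be told apart. The 20 nucleosomes with a dyad in a ribosomal RNA gene, also repeated, had a median change of -1.10 and medians of 1640 after auxin and 3239 after ethanol; by 5′ windows, 5 rRNA genes had -0.47. The lowest window outside the domains, at the right end of chromosome I where the large ribosomal repeat lies, had 249.9 after auxin and 362 after ethanol (-0.53), and at low salt 267 after auxin and 655 after ethanol (-1.29).

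Over all genes the change went with occupancy. To avoid ranking genes on the library that enters the change, protein-coding genes outside the domains were split into deciles by their occupancy in 2 libraries that do not enter it. In low-salt ethanol, the lowest decile had a median change at high salt of 0.39, decile 5 had 0.23 and the highest -0.57. In wild type at high salt, the lowest decile had 0.38, decile 5 had 0.26 and the highest -0.74. Cuticle collagens and C-type lectins, both at 0.24, had median occupancies of 138 and 139 in wild type, within decile 5. The *srh* genes, at 0.48, had 127, within decile 4, whose median change was 0.30. Germ granule genes (-0.61), meiotic genes (-0.81) and complex I genes (-0.33) had 250, 257 and 234, within decile 9, whose median change was -0.34. RNA-binding regulators (-1.04) and piRNA pathway genes (-0.93) had 211 and 230, within decile 8, at -0.07. The other families were not compared in this way. In the highest decile of low-salt ethanol, the 52 ribosomal protein genes had a median of -1.20 and the others of -0.56, and in that of wild type 54 ribosomal protein genes had -1.23 and the others -0.71. In the highest decile of wild type 34.5% of genes were at least 2-fold lower, against 12.5% of all genes. Ranked on the ethanol library itself, the deciles ran between 1.64 and -0.90, which includes the return to the mean that such ranking forces.

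**Figure D4:**
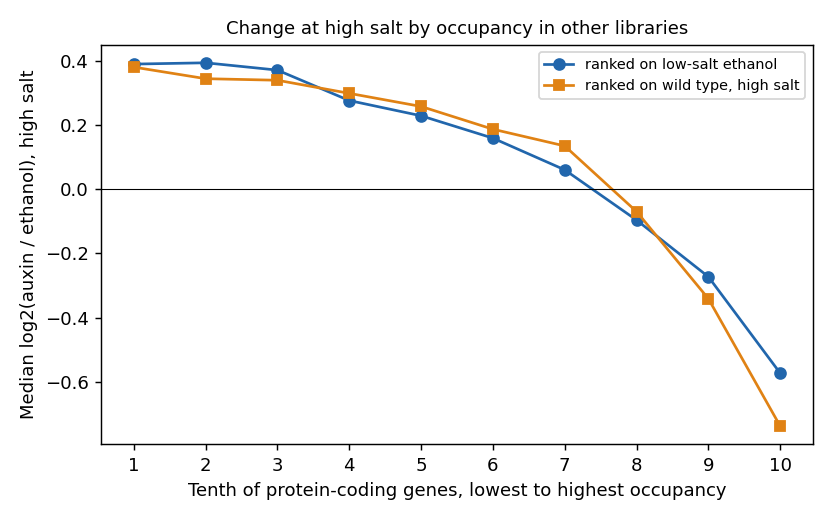
Median change at high salt of protein-coding genes outside the domains, by deciles of occupancy in low-salt ethanol (circles) and in wild type at high salt (squares), libraries that do not enter the change. Both lines run down, between 0.39 and -0.57 and between 0.38 and -0.74.

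The single genes with the lowest ratios, among those of above-median occupancy and the same direction at low salt, had 1 to 5 nucleosomes of the window listed at 0 after auxin, a value reached after subtraction of input. At *gex-3*, for a subunit of the actin-regulating WAVE complex, 5 of 6 nucleosomes were listed at 0 after auxin and at 180 to 496 after ethanol, and the means were 15 after auxin and 409 after ethanol (-4.68). At low salt it was at -0.29, and over its whole span at -1.52. At *mip-2* and *copz-1* 3 of 6 were listed at 0, at *atx-2* 3 of 5 and at *smc-4* 1 of 6. *atx-2*, an ataxin-2 homolog, had 32.3 after auxin and 332 after ethanol (-3.33), *mip-2*, for a germ granule protein, 68.2 after auxin and 620 after ethanol (-3.17), *copz-1*, for a coatomer subunit, 51.8 after auxin and 447 after ethanol (-3.09) and *smc-4*, for a condensin subunit, 46.2 after auxin and 394 after ethanol (-3.07). Over whole spans *atx-2* was at -0.89 and *smc-4* at -0.80. The other 3 are neighbours on chromosome I that share nucleosomes, F13G3.7 (40.3 after auxin, 520 after ethanol), F13G3.6 (54.4 after auxin, 464 after ethanol) and F13G3.15 (45.6 after auxin, 390 after ethanol). In *prde-1* against wild type only *mip-2* of these 8 was lower (-0.92).

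The 8 genes with the highest ratios were of other kinds. *fbxa-44*, for an F-box protein, had 314 after auxin and 15.6 after ethanol (4.24), with 4 of 6 nucleosomes listed at 0 after ethanol, and was at 2.74 at low salt. *clec-84*, for a C-type lectin, had 310 after auxin and 22.6 after ethanol (3.72). The chemoreceptor genes *str-143* (278 after auxin, 27.8 after ethanol) and *srt-39* (307 after auxin, 36.9 after ethanol) were at 3.27 and 3.02. D1044.7 was at 3.55, R07D5.2 at 3.39, B0244.4 at 3.27 and C33G8.13 at 3.01. At low salt *srt-39* was at 0.96, *clec-84* at 0.49, R07D5.2 at 0.21 and *str-143* at 0.11. B0244.4 was at 0.10, D1044.7 at 0.09 and C33G8.13 at 0.03. Over whole spans the 8 genes lay between 0.54 (B0244.4) and 1.66 (*srt-39*). They passed the cut on the mean of both libraries, at 152, only through auxin, and the 8 lowest only through ethanol. With 1 library a group, single genes at the extremes cannot be told apart from sampling at low values.

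At protein-coding genes as a whole the pattern of nucleosomes around the 5′ end was kept, with differences in the gap and in the first downstream peak. A dyad lay in the 10 bp of the upstream peak in 5.10% of 19073 genes after auxin (bin from -170 to -161 bp) and in 5.00% after ethanol (bin from -150 to -141 bp). The gap upstream of the 5′ end was filled more after auxin, at 3.96% against 3.62% in ethanol. The mean over all bins was also higher after auxin, at 4.35% against 4.24%. Auxin dyads were listed closer to each other than ethanol dyads, as given below, and the effect of this on the gap was not tested. The peak of the first nucleosome downstream was lower after auxin, at 4.61% in the bin from 90 bp against 4.88% in the bin from 110 bp after ethanol. Per gene, the first downstream dyad differed by a median of -4 bp along the direction of transcription, auxin minus ethanol, and 45.8% of 9349 such dyads lay further downstream. Its median change in occupancy was 0.00, and that of the nearest upstream nucleosome was 0.00 over all chromosomes, -0.27 on I, -0.26 on III and 0.27 on X. At piRNA genes of the domains the gap was likewise more filled, at 2.49% after auxin and 1.70% after ethanol, and the peaks were lower on both sides, upstream at 11.2% after auxin and 12.9% after ethanol and downstream at 7.57% after auxin and 9.01% after ethanol.

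Where both libraries had a dyad of their own, listed at different positions, these differed by a median of 29 bp, over 286926 nucleosomes. Of them 24.7% differed by more than 50 bp. Distances were shorter in the domains, with a median of 25 bp and 19.7% over 50 bp, against 30 bp and 25.1% outside. X had 31 bp. Well occupied nucleosomes, with at least 400 in both libraries, differed by 17 bp, in the domains and genome-wide alike. At low salt the median was 26 bp. Dyads listed at equal positions were left out. In 159574 of 218010 such cases one library was at 0 and the position was not its own. In a further 29148 both libraries had signal, and this reason does not apply to them. With these kept, the median at high salt was 25 bp and 22.5% differed by more than 50 bp.

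Spacing, the distance between neighbouring dyads, differed mainly among nucleosomes of high occupancy, and in opposite directions in the domains and on X. Over all dyads the median distance was 192 bp after auxin and 197 bp after ethanol, with 180 bp in the domains in both. Distances of 140 to 200 bp made up 31.0% after auxin and 34.2% after ethanol in the domains, and 28.7% and 29.1% outside. With an occupancy of at least 200, neighbours in the domains were a median of 253 bp apart after auxin and 222 bp after ethanol. The most frequent distance between any pair of such dyads in the domains was 130 to 139 bp, with 41.8 pairs per 1000 dyads after auxin and 53.7 after ethanol, and a second peak at 380 to 389 bp had 32.7 after auxin and 35.8 after ethanol. Outside the domains the first peak was at 190 to 199 bp, with 26.8 after auxin and 28.1 after ethanol. On X the median distance at this occupancy was 365 bp after auxin and 497 bp after ethanol. A fixed occupancy threshold keeps fewer dyads where occupancy is lower, which was the case in the domains after auxin and on X after ethanol. In addition, ethanol dyads were never closer than 100 bp, while auxin dyads had pairs from 50 bp on, so the dyads listed for the 2 libraries differ at short range.

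**Figure D5:**
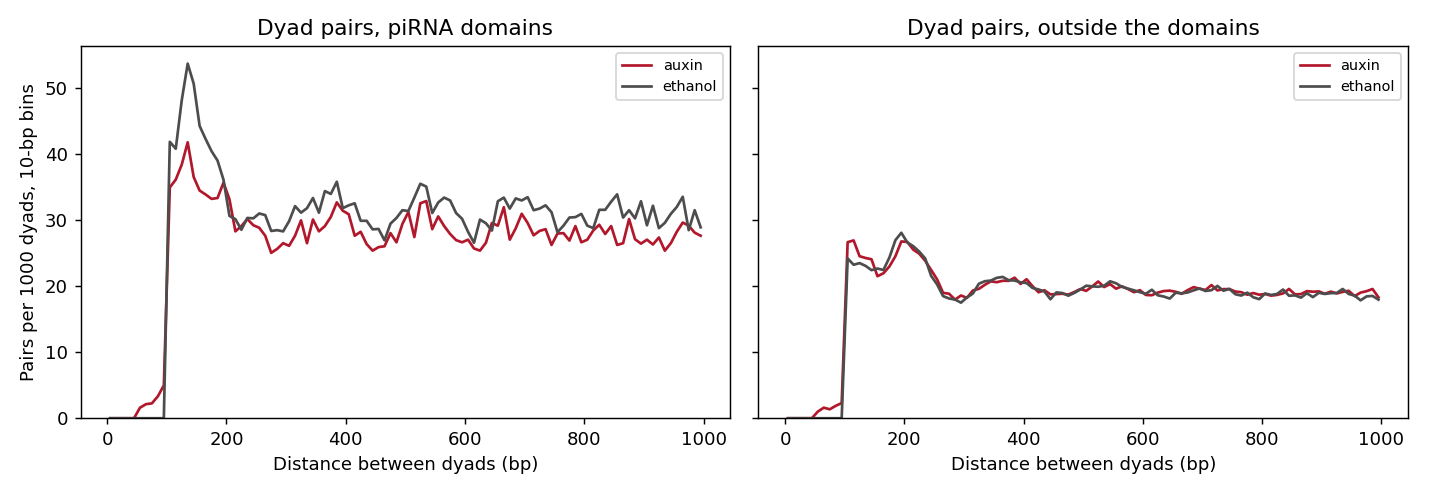
Pairs of dyads by distance in bins of 10 bp, per 1000 dyads with an occupancy of at least 200, after auxin (red) and ethanol (grey), in the domains and outside. The peak at 130 to 139 bp in the domains has 41.8 pairs after auxin and 53.7 after ethanol.

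The fuzziness score, the authors' measure of how widely fragments scatter around a dyad, was slightly higher after auxin. Its median was 38.5 after auxin and 37.4 after ethanol, and per nucleosome the median difference was 0.77, with quartiles at -10.5 and 12.3. The difference was 0.65 in the domains and 1.86 on X. It went with occupancy. Outside the domains, nucleosomes at least 2-fold lower after auxin had a difference of 7.10 and those at least 2-fold higher -4.66, and in the domains these values were 5.19 and -8.51.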

How the data were processed

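Per the labels and the methods of the paper, reads were mapped by the authors with Bowtie2 (build ce11). They merged the 2 replicates of each group and called nucleosomes with DANPOS3 against input; the methods give a GC correction for native ChIP-seq, while only the names of the *prde-1* tables carry it, so whether it was applied to the ISW-1 tables is unsure. The deposited summit values are a signal, H3 minus input, never below 0 and scaled to 1 total per library; depth is unknown. The deposited fuzziness score, a second score per nucleosome (the value where the libraries differ most, used as an alternative) and dyad positions in bp were used as given. The authors' fold change, p-value and FDR columns in the same files were not used.

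Tables of auxin against ethanol at high and low salt and of *prde-1* over wild type were read with Python 3.11.15, pandas 2.3.3 and NumPy 2.4.6 (figures, matplotlib 3.10.9). Dyads lay within the chromosome lengths of the reference, so its ce11 genome and Ensembl 115 genes were used; sequences were read from RefSeq's copy of the assembly. Domains were runs of 100000-bp windows of chromosome IV holding at least 20 piRNA genes, joined across gaps of at most 300000 bp and kept from 1 Mb. Changes used a pseudocount of 1, which understates those of low values; genes needed at least 4 nucleosomes. GC bins were 20, over 150 bp.

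Members and lists were chosen with earlier results of these data known. Named were the 8 lowest and 8 highest protein-coding genes outside the domains with a mean above the median and the same sign at low salt, the 4 lowest and 4 highest piRNA genes in the top decile of upstream occupancy (1 of them is not reported here), and all genes of the transcription complex and of ISWI; other genes illustrate their list. Procedures were tested on simulated data. The other samples of the series were not analysed here.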

Additional observations from a re-analysis of the deposited data

Results flagged for a closer look

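Some medians had opposite signs at high and low salt; none of these differences was tested, and the tables were scaled separately, the median of all protein-coding genes outside the domains being 0.09 at high and -0.11 at low salt. Somatic genes were at 0.22 at high salt and -0.27 at low salt, major sperm proteins at 0.54 and -0.31, cuticle collagens at 0.24 and -0.17, C-type lectins at 0.24 and -0.21 and *srh* chemoreceptors at 0.48 and -0.11. miRNA genes were at 0.12 at high salt and -0.18 at low salt, and neuropeptides and insulins at 0.26 and -0.12. Once the median of genes of like GC content was taken from each change, the low-salt medians were 0.16 for collagens, 0.08 for neuropeptides and insulins, 0.06 for major sperm proteins, 0.05 for miRNA genes, -0.00096 for C-type lectins, -0.05 for *srh* genes and -0.06 for somatic genes. Of single genes, *prde-1* was at 0.14 at high salt and -0.92 at low salt, and *tofu-4* at -1.10 and 0.62.

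The table also lists 89 positions on the mitochondrial genome, which holds no histones. They had a mean of 1987 after auxin and 1944 after ethanol, far above the nuclear mean of 168 in both libraries, after subtraction of input.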

How the results depend on the processing

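Each group is 1 merged library, so a difference between groups cannot be set against the spread of replicates, and low values, sampling and the calling of dyads cannot be told apart from the treatment. No paired analysis was possible because the replicates were merged, and no replicate could be left out. With point occupancy, the deposited value where the libraries differ most, the genome-wide median was 5.17, nucleosomes at least 2-fold higher 292387, X minus the other chromosomes 2.201, arms minus centres -0.70 and domains minus outside -8.75. On the same values piRNA upstream nucleosomes were at -4.45, protein-coding upstream ones at 4.52 and first downstream ones at 4.02. Germline RNA-binding regulators were at -1.74, meiotic genes at -1.94, ribosomal proteins at -3.82 and *srh* genes at 0.83. Chromosome I minus the others was -2.30, III -7.87, IV -7.24 and V 1.09. The cause was not tested. Domains minus outside was -0.79 with a mean occupancy of at least 50 and -0.86 by the ratio of means, against -0.55. With auxin scaled by 0.868, piRNA upstream nucleosomes were at -1.26, ribosomal proteins at -1.40, RNA-binding regulators at -1.24, meiotic genes at -1.01, major sperm proteins at 0.33 and *srh* genes at 0.28, by construction, and miRNA genes turned to -0.081. Over whole gene spans RNA-binding regulators were at -0.61, major sperm proteins at 0.81 and ribosomal proteins at -1.75; of the other 31 lists and groups 11 moved by more than 0.2, among them the transcription complex (-0.18), ISWI genes (-0.37), other remodellers (-0.18), germ granule genes (-1.0), histones (-0.66), vitellogenins (0.16), tRNA genes (-0.59), rRNA genes (-0.86), mitochondrial ribosomal proteins (-0.39) and initiation factors (-0.38). With a mean of at least 50, histones were at -0.57, rRNA genes at -0.74 and chromosome IV minus the others at -0.37. With equal dyad positions kept, an alternative chosen after seeing the data as were the 10 further lists, GC-centred changes, deciles of other libraries and lists without their genes in the domains (none of 36 medians moved by more than 0.2), dyads differed by 25 bp. Of 35 lists, 20 lay below 0; all 20 did so with a pseudocount of 10, a mean of at least 50, point occupancy, the scaling and without the top 0.1%, and 19 over whole gene spans.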

Other observations

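The 5′ window of *prde-1* held some of the most occupied nucleosomes of the high-salt table. Its first dyad downstream of the 5′ end had 3581 after auxin and 3791 after ethanol, and the one 272 bp downstream 6403 after auxin and 5103 after ethanol. At low salt, the dyads 114 and 273 bp downstream had 755 and 1739 after auxin, and 2800 and 2747 after ethanol. In the table without the degron strain, the first dyads downstream had 224 and 595 in *prde-1*, and 414 and 561 in wild type. The tables were scaled separately. Whether the degron strain carries a further copy or a tag of this sequence is not given in the labels and was not tested. YL704, the strain of the paper with both the degron and TIR1, carries a *prde-1* transgene, as given above.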
